A study of Mus musculus with 14 samples.

Results

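A set of 9 regulators of bone and cartilage formation, out of 21757 protein-coding genes, was examined for BMP-responsive chromatin binding in mouse muscle stem cells (MuSCs). They were the RUNX genes Runx1, Runx2 and Runx3, the osteoblast genes Sp7 and Alpl, the homeobox genes Msx1 and Msx2, and the SOX genes Sox8 and Sox9. The genes were chosen by name, with earlier results of these data known. For each gene, all peaks were taken that overlapped its canonical GENCODE transcript or the 20 kb on either side, in GRCm39 coordinates. The cells came from muscles of female mice aged 9 weeks of the line C57BL/6N(Tg(Pax7-EGFP)Tajb), in which a Pax7 transgene drives a green fluorescent protein that was used to sort them. After 2 further days in culture they were kept for 6 h in serum-free medium with 200 ng/mL of a soluble BMP receptor (BMPR-1A-Fc), in both conditions. BMP6 (100 ng/mL) or vehicle (4 mM HCl with 0.1% BSA) was then given for 1 h, and the vehicle samples are called control. CUT&Tag, in which an antibody on chromatin guides a transposase that cuts and tags the DNA beside it, was done on 100000 cells per library. Antibodies against pSMAD1/5/9, SMAD4 or H3K27ac were used, each in 2 biological replicates of both conditions. The authors combined both replicates into 1 consensus list of peaks per antibody and condition, so that 6 lists were available.

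BMPs bind receptor kinases that phosphorylate SMAD1, SMAD5 and SMAD9, which then enter the nucleus with SMAD4 and bind DNA. H3K27ac is an acetylation of histone H3 that marks active promoters and enhancers. RUNX2 and SP7 (osterix) are transcription factors required for osteoblast differentiation, and Alpl encodes the tissue-nonspecific alkaline phosphatase of mineralising cells. MSX1 and MSX2 are homeobox factors of the limb and skull and classical BMP targets in embryonic tissue, while SOX9 directs chondrocyte differentiation and SOX8 is its close relative. RUNX1 is best known for blood cell formation and RUNX3 for T cells and sensory neurons, and both are also expressed in skeletal precursors. BMPs can divert myogenic cells towards an osteoblast fate, which is why these genes are of interest in MuSCs.

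The identity of the cells was checked by H3K27ac peaks over transcription start sites (TSSs). In each condition, 9 of 10 MuSC markers had such a peak, including Pax7, Myf5 and Myod1, and Calcr did not. Over all genes the share was 51.4% after BMP6 and 49.5% in control cells. Among markers of other cells, a peak was found at 0 of 6 immune genes, 1 of 7 endothelial genes (Tek) and 2 of 5 mural genes in both conditions, and at 2 of 8 fibro-adipogenic genes after BMP6 and 3 of 8 in control cells. The mural genes were Abcc9 and Cspg4, and the fibro-adipogenic genes were Col3a1 and Dpt in both conditions and Cd34 in control cells. Pdgfra, which defines fibro-adipogenic progenitors, had no peak in either condition. The part of such cells in the peaks below was not tested. In bulk chromatin, a site bound in few cells and a site bound weakly in many cannot be told apart.

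Signal was compared by rank within a list (rank 1 is the strongest peak), because no common scale is stated for the lists. The lists hold 7339 pSMAD1/5/9 peaks after BMP6 and 949 in control cells, 12860 and 8577 SMAD4 peaks, and 78050 and 67790 H3K27ac peaks. Each peak also carries the signal of both replicates, and ranks by these replicate columns are given as the spread. The columns carry no replicate number. With 1 list per condition no test between conditions could be made for a gene, so all values are descriptions. The lists hold no read counts, and the depth behind a peak is unknown.

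The following windows of 200 bases lie around the summits of the strongest peaks and show the DNA at these summits. They were read from GRCm39, 5′ to 3′ on the strand of the gene. Capitals mark matches, on either strand, to GGCGCC and GGAGCC (GC-rich motifs of SMAD1/5), GTCTAGAC (the palindromic SMAD-binding element), CAGCTG (an E-box of the kind bound by MYOD1), TGACTCA (AP-1) and TGTGGT (the core RUNX motif). The first is the strongest pSMAD1/5/9 peak of Runx1, in intron 6 at chr16:92417774-92417973 on the minus strand, with 1 GGCGCC and 2 TGACTCA matches. The second is that of Runx3, in intron 4 at chr4:134898695-134898894 on the plus strand, with 1 TGACTCA match. The third is that of Sp7, upstream of the gene at chr15:102286343-102286542 on the minus strand, with 3 GGAGCC matches (GGCTCC is its reverse complement) and 1 TGTGGT match. The fourth is the SMAD4 peak of Sox8 after BMP6, upstream at chr17:25794746-25794945 on the minus strand, with 2 CAGCTG matches. The last is the SMAD4 peak of Sox9 after BMP6, upstream at chr11:112672550-112672749 on the plus strand, and holds GTCTAGAC followed by a CA repeat. It was added to the set after its match had been seen.
Runx1: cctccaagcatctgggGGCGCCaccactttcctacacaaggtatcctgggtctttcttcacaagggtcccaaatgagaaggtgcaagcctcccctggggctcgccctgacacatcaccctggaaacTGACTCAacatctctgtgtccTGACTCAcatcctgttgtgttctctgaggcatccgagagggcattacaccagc
Runx3: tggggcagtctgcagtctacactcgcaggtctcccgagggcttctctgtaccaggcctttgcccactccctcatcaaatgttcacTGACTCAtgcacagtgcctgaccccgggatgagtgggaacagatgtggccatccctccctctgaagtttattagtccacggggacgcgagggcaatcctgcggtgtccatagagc
Sp7: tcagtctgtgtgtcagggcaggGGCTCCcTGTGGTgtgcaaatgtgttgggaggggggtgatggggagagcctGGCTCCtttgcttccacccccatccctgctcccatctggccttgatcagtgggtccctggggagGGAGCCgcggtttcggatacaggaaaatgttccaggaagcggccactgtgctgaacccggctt
Sox8: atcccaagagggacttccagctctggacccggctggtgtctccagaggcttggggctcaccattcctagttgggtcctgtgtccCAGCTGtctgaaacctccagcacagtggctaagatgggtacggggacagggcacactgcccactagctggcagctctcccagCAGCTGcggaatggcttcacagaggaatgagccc
Sox9: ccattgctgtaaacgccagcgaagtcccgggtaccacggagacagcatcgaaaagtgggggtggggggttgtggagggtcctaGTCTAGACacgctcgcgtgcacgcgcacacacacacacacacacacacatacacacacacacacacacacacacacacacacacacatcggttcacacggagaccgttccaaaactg
The windows at the strongest pSMAD1/5/9 peaks of Runx2 and Alpl held none of these letters, nor did the window at the pSMAD1/5/9 summit of Sox9 after BMP6, which lies nearer to the TSS than the SMAD4 summit. A match is a description of letters and not evidence of a bound site.

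After BMP6, 6 of the 9 genes had a pSMAD1/5/9 peak (Runx1, Runx2, Runx3, Sp7, Alpl and Sox9), with 21 peaks in all. Among all genes the share was 29.1%. In control cells Sox9 alone had a pSMAD1/5/9 peak, against 5.97% of all genes. SMAD4 peaks were listed at 7 of the genes after BMP6 (30 peaks), the 6 above and Sox8, and at 5 in control cells (21 peaks), where Sp7 and Alpl had none. The shares of all genes were 39.3% and 30.8%. H3K27ac peaks were listed at 7 genes in both conditions, 91 after BMP6 and 98 in control cells, with 74.8% and 73.4% of all genes holding one. Msx1 and Msx2 had no peak in any of the 6 lists. The plot of peak numbers by gene and list shows how unevenly the peaks were spread, with 13 of the 21 pSMAD1/5/9 peaks at Runx1.

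**Figure D1:**
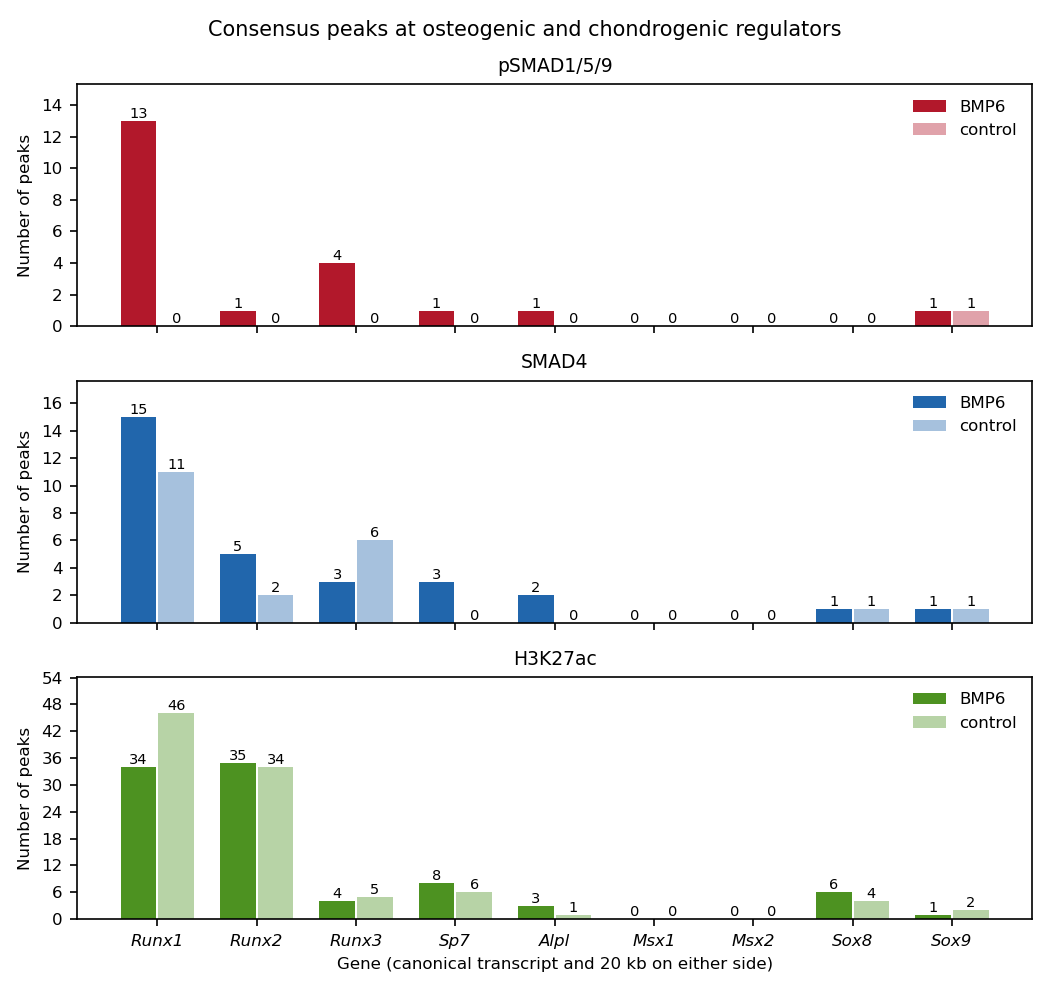
Number of consensus peaks (vertical axis) at each of the 9 genes and 20 kb on either side (horizontal axis) for pSMAD1/5/9, SMAD4 and H3K27ac, after BMP6 (dark bars) and in control cells (light bars). Each bar is 1 consensus list of 2 replicates and has no error. Runx1 held 13 pSMAD1/5/9 peaks after BMP6 and 0 in control cells, and Msx1 and Msx2 held no peak.

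A long gene offers more room for peaks. Of genes whose region was below 50 kb, 24.0% had a pSMAD1/5/9 peak after BMP6, against 34.9% of those of 150 kb or more. The region of Runx1 spans 265 kb and that of Runx2 173 kb, against a median of 56.3 kb, whereas those of Msx1, Msx2, Sox8 and Sox9 span 44.1 kb to 46.2 kb. In equal windows of 20 kb on either side of the TSS, Runx1 had 3 pSMAD1/5/9 peaks after BMP6, Runx3 had 2, Sp7 and Sox9 had 1 each, and Runx2 and Alpl had 0. Such a window held a peak at 22.4% of all genes, and 534 genes had at least 3. Per 100 kb of the whole region, Runx3 had 6.11 pSMAD1/5/9 peaks after BMP6 and Runx1 had 4.91, ahead of the other genes.

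Runx1 (ENSMUSG00000022952.19) is a minus-strand gene at chr16:92398354-92623037. Its 13 pSMAD1/5/9 peaks after BMP6 were reached or exceeded by 3 genes in all, itself included. The strongest, printed above, had its summit 205163 bp downstream of the TSS in intron 6 and ranked 434 of 7339 (5.91% from the top), with ranks of 316 and 848 by the replicate columns. The next in rank were a peak 2262 bp downstream in intron 2, with a rank of 507, and a pair in intron 2 at 129273 bp and 128690 bp with ranks of 541 and 589. RUNX genes have a distal and a proximal promoter, and the pair lay at the proximal one, where GENCODE places starts 128821 bp and 130024 bp downstream of the canonical TSS. The peak with rank 589 covered the first of these starts. By canonical TSSs, Clic6 was nearest to the 5 pSMAD1/5/9 peaks beyond 200 kb, at 122872 bp for the strongest, which lay 75139 bp from the nearest start of any basic Runx1 transcript. For the other 8 the nearest was Runx1. A further peak covered the canonical TSS itself, with its summit at 90 bp and a rank of 2825. Of the 13 peaks, 10 passed a stricter irreproducible discovery rate (IDR) of 0.01. In control cells no pSMAD1/5/9 peak was listed in the region. The nearest lay 135 kb upstream of the gene, where Runx1 was still the gene with the nearest TSS, and ranked 370 of 949.

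SMAD4 peaks at Runx1 numbered 15 after BMP6 and 11 in control cells. The strongest after BMP6 had its summit at 205221 bp, 58 bp from that of the strongest pSMAD1/5/9 peak, and ranked 276 of 12860 (233 and 426 by the replicate columns). In control cells the SMAD4 peak at that site ranked 693 of 8577, and the strongest lay at 216290 bp with a rank of 303. Overlapping SMAD peaks of the 4 lists merged into 18 sites. Of these, 6 held pSMAD1/5/9 and SMAD4 after BMP6 and SMAD4 also in control cells, and 3 held both factors after BMP6 only. The latter lay around 2.2 kb, 42 kb and 215 kb downstream of the TSS. A further 2 sites held pSMAD1/5/9 alone, 4 SMAD4 after BMP6 alone, 2 SMAD4 in both conditions and 1 SMAD4 in control cells alone. The map of Runx1 shows these sites grouped at both promoters, in the early part of intron 2 and towards the end of the gene.

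**Figure D2:**
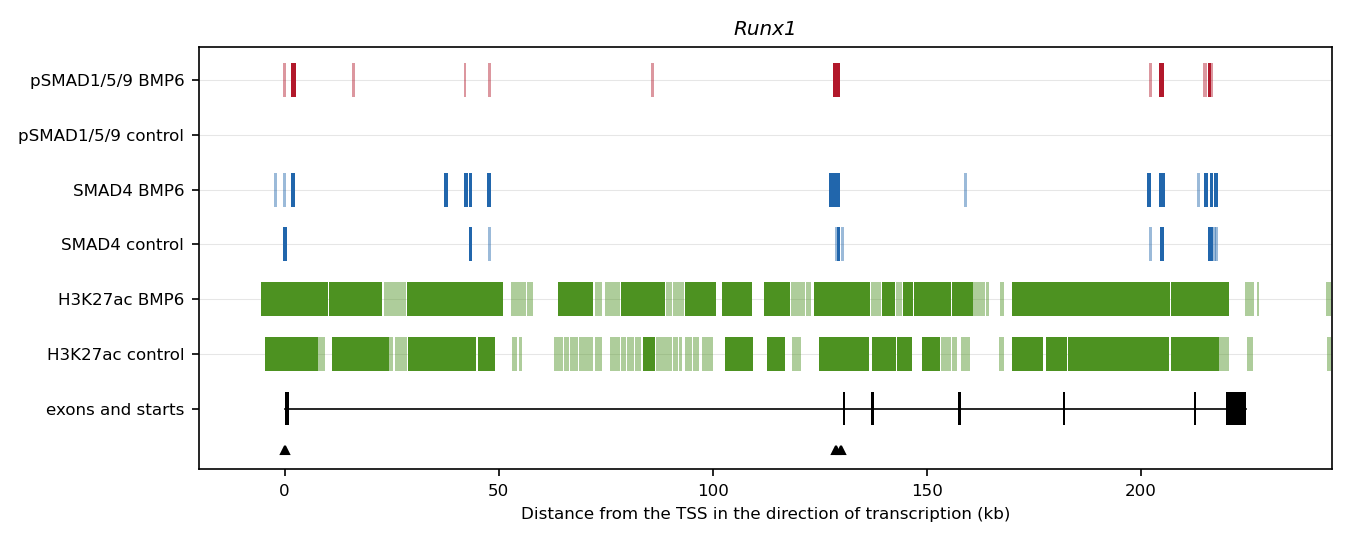
Peaks of the 6 lists at Runx1 by distance from the canonical TSS in kb (horizontal axis), with 1 row per list, exons as black boxes and annotated transcript starts as triangles. Full colour marks peaks in the strongest 25% of their list and pale colour all others, and peaks narrower than 0.6 kb are drawn 0.6 kb wide. The row of pSMAD1/5/9 peaks in control cells is empty, and SMAD4 peaks occur in both conditions near 129 kb and beyond 200 kb.

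Runx2 (ENSMUSG00000039153.18, minus strand, chr17:44914888-45047535) had 1 pSMAD1/5/9 peak after BMP6. It lay in intron 3, 26746 bp downstream of the TSS, and ranked 6128 of 7339 (5834 and 5750 by the replicate columns), so that it was among the weakest of the list and did not pass an IDR of 0.01. A SMAD4 peak overlapped it with its summit 63 bp away and a rank of 4807 of 12860. The other 4 SMAD4 peaks after BMP6 ranked between 7364 and 10830, and 1 of them lay over the starts 938 bp and 1014 bp downstream of the canonical TSS. Neither of the SMAD4 peaks of control cells passed an IDR of 0.01. They lay at 82038 bp with a rank of 4899 of 8577 and at 2383 bp with a rank of 6534. Further starts of Runx2 lie 77.6 kb to 78.1 kb upstream, outside the region examined. These starts were covered by an H3K27ac peak in both conditions and by no SMAD peak.

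The canonical transcript leaves out another part of Runx2, whose peaks were looked up after the data had been seen. A longer basic transcript ends at 44807373, 108 kb beyond the canonical end, and with all basic transcripts the region of Runx2 spans 358 kb. It then held 4 pSMAD1/5/9 peaks after BMP6 in place of 1, 10 SMAD4 peaks in place of 5, and 6 SMAD4 peaks in control cells in place of 2. No pSMAD1/5/9 peak of control cells was added. The 3 further pSMAD1/5/9 peaks lay 235898 bp, 231612 bp and 228372 bp downstream of the canonical TSS, and they ranked ahead of the 1 inside the canonical region. Their ranks were 211 (245 and 208 by the replicate columns), 857 (1230 and 556) and 2024 (2346 and 1777) of 7339, and all passed an IDR of 0.01. Each overlapped a SMAD4 peak after BMP6, with ranks of 158, 718 and 774 of 12860. SMAD4 peaks were also listed at these places in control cells, with ranks of 558, 986 and 610 of 8577. Runx2 had the nearest canonical TSS to all of them. These peaks are not among the 21 pSMAD1/5/9 peaks counted above.

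Runx3 (ENSMUSG00000070691.12, plus strand, chr4:134879807-134905301) had 4 pSMAD1/5/9 peaks after BMP6. The strongest, printed above, lay in intron 4 at 18988 bp with a rank of 1672 of 7339 (2671 and 972). A pair beyond the end of the gene, at 39099 bp and 40695 bp, ranked 1916 and 3420, and the weakest, at 17124 bp in intron 3, ranked 6332. At the first 3 of these, SMAD4 peaks were present in both conditions. Runx3 was the only one of the 9 genes with fewer SMAD4 peaks after BMP6 than in control cells, 3 against 6. At an IDR of at most 0.01 this order was reversed, with 3 after BMP6 and 2 in control cells. The strongest SMAD4 peak ranked 2876 of 12860 after BMP6, at 39288 bp, and 1985 of 8577 in control cells, at 40596 bp. No SMAD or H3K27ac peak covered the canonical TSS of Runx3, and another annotated start 31855 bp upstream was under an H3K27ac peak in both conditions.

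Sp7 (ENSMUSG00000060284.9) is a minus-strand gene at chr15:102265038-102275705. Its 1 pSMAD1/5/9 peak after BMP6 was centred 10738 bp upstream of the TSS, ranking 1500 of 7339 (1114 and 2715), with an IDR below 0.01. Sp7 was the gene with the nearest TSS. SMAD4 peaks after BMP6 had summits 9911 bp and 10862 bp upstream, with ranks of 2970 and 2063 of 12860, and 11997 bp downstream of the TSS, with a rank of 6322. In control cells no SMAD peak of either kind was listed, and the nearest SMAD4 peak lay 38.1 kb from the gene, at the promoter of Sp1. The region also holds Myg1 and Aaas. Aaas had the nearest TSS to that last SMAD4 peak, 4507 bp away, so the peak cannot be assigned to Sp7 alone. None of the starts at or within 1 kb downstream of the canonical TSS was under an H3K27ac peak, while a start 3665 bp upstream was, in both conditions.

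Alpl (ENSMUSG00000028766.12, minus strand, chr4:137469044-137523710) had 1 pSMAD1/5/9 peak after BMP6, in intron 7 at 47541 bp, with a rank of 3506 of 7339 (3199 and 3896). It did not overlap a SMAD4 peak. Both SMAD4 peaks after BMP6 were weak, with ranks of 8747 of 12860 at 51633 bp in intron 9 and 11689 at 65478 bp beyond the gene, and neither passed an IDR of 0.01. Control cells had no SMAD peak at Alpl. None of the annotated starts of the gene was under an H3K27ac peak in either condition. All H3K27ac peaks of the region, 3 after BMP6 and 1 in control cells, had the neighbouring gene Gm63526 as the nearest TSS, and so had the pSMAD1/5/9 peak.

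Msx1 and Msx2 (ENSMUSG00000048450.12 on chromosome 5 and ENSMUSG00000021469.11 on chromosome 13) had 0 peaks each, H3K27ac included. The nearest pSMAD1/5/9 peak to Msx1 after BMP6 lay 50.4 kb upstream of the gene and so outside the region, also when that was widened to 50 kb. It ranked 1817 of 7339 (1463 and 2683), and Msx1 was the gene with the nearest TSS. A SMAD4 peak overlapped it with a rank of 1538 of 12860 (1406 and 2004) after BMP6, and another in control cells ranked 7538 of 8577 (7131 and 7522). H3K27ac peaks covered the site in both conditions, with ranks of 27625 of 78050 and 44987 of 67790, and no pSMAD1/5/9 peak of control cells did. At Msx2 the nearest pSMAD1/5/9 peak after BMP6 was 433 kb away. The nearest SMAD4 peak, 41.5 kb upstream, ranked 12740 of 12860. This site of Msx1 was singled out after its values had been seen.

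Sox8 (ENSMUSG00000024176.13, minus strand, chr17:25784634-25789726) had SMAD4 peaks and no pSMAD1/5/9 peak. With BMP6 the SMAD4 summit was 5120 bp upstream of the TSS, ranking 5271 of 12860 (5061 and 5541). That of control cells lay at 5454 bp upstream with a rank of 4799 of 8577 (4060 and 5892). Both lay side by side without overlap under the same H3K27ac peak, and Lmf1 had the nearest TSS to both. The nearest pSMAD1/5/9 peak after BMP6 was 24.5 kb from the gene, with a rank of 5367.

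Sox9 (ENSMUSG00000000567.7, plus strand, chr11:112673009-112678586) was the exception in control cells, since both SMADs were listed over its TSS in both conditions. The pSMAD1/5/9 summit lay 218 bp upstream of the TSS after BMP6, with a rank of 3905 of 7339 (2745 and 6169). In control cells it lay 297 bp upstream, with a rank of 829 of 949 (839 and 809). Neither passed an IDR of 0.01. The SMAD4 summits lay 359 bp upstream after BMP6 and 356 bp upstream in control cells, with ranks of 2391 of 12860 (1965 and 3820) and 1019 of 8577 (984 and 1284). The GTCTAGAC palindrome printed above starts 376 bp upstream of the TSS. It fell within the 200 bp around both SMAD4 summits and the pSMAD1/5/9 summit of control cells, and inside the pSMAD1/5/9 peak after BMP6 but outside its central 200 bp. The element was present in 1.26% of all such windows of SMAD4 peaks after BMP6, in 1.15% of those in control cells, and in 0.527% of the pSMAD1/5/9 windows of control cells.

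**Figure D3:**
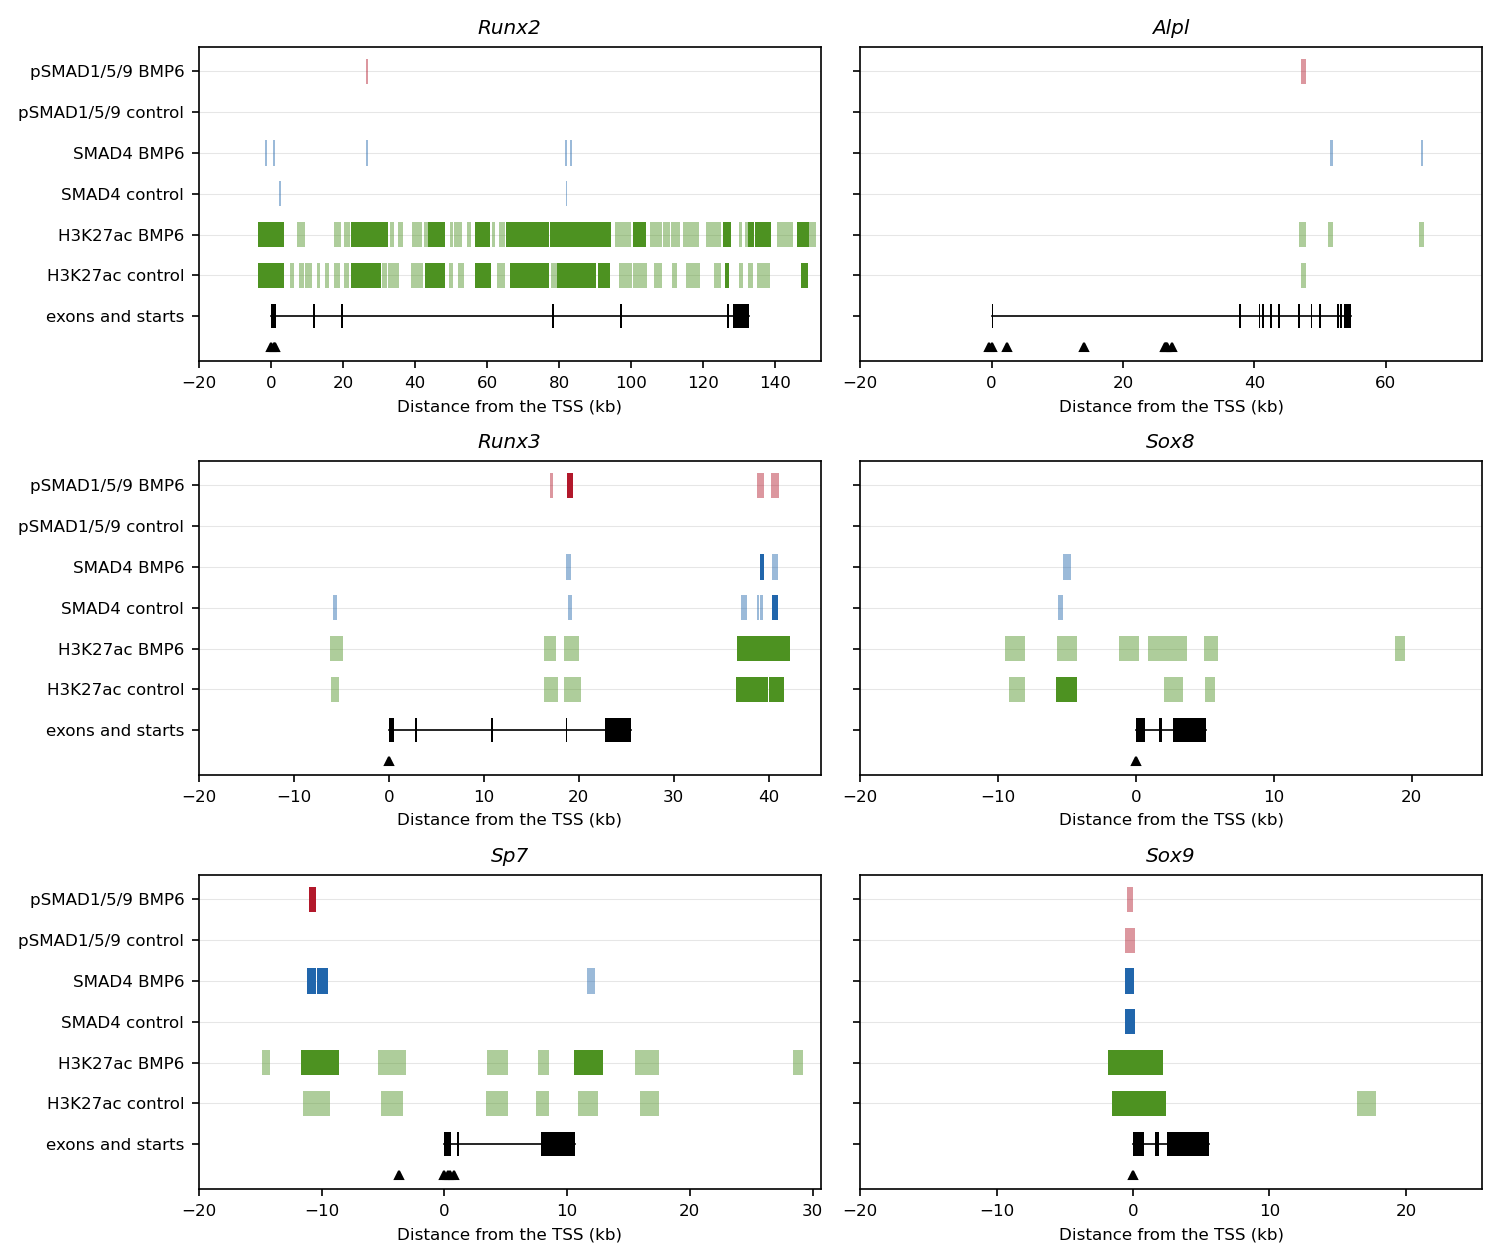
Peaks of the 6 lists at Runx2, Runx3, Sp7, Alpl, Sox8 and Sox9 by distance from the canonical TSS in kb (horizontal axes, each with its own range), drawn as in the map of Runx1. Narrow peaks are widened to be visible. The SMAD peaks of Sox9 sit over the TSS in all 4 SMAD lists, the pSMAD1/5/9 peak of Sp7 and the SMAD4 peaks of Sox8 lie upstream, and the pSMAD1/5/9 peaks of Runx3 and Alpl lie in or beyond the later part of the gene.

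By the strongest pSMAD1/5/9 peak after BMP6, the genes fell in the order Runx1, Sp7, Runx3, Alpl, Sox9 and Runx2. The replicate ranks of Runx1 (316 and 848) lay apart from those of Sp7 (1114 and 2715), and those of Runx3 (972 and 2671) apart from those of Alpl (3199 and 3896). Sp7 and Runx3, Alpl and Sox9, and Sox9 and Runx2 overlapped and were not distinguishable by the spread between replicates. With all basic transcripts Runx2 would stand first, since its strongest peak then ranked 211 (245 and 208), apart from the replicate ranks of Runx1. Against all 6322 genes with a pSMAD1/5/9 peak, Runx1 stood in place 553 and Runx2 in place 5555. The median of the 21 peaks was at 38.5% from the top of the list, and for the 30 SMAD4 peaks after BMP6 it was at 25.1%.

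**Figure D4:**
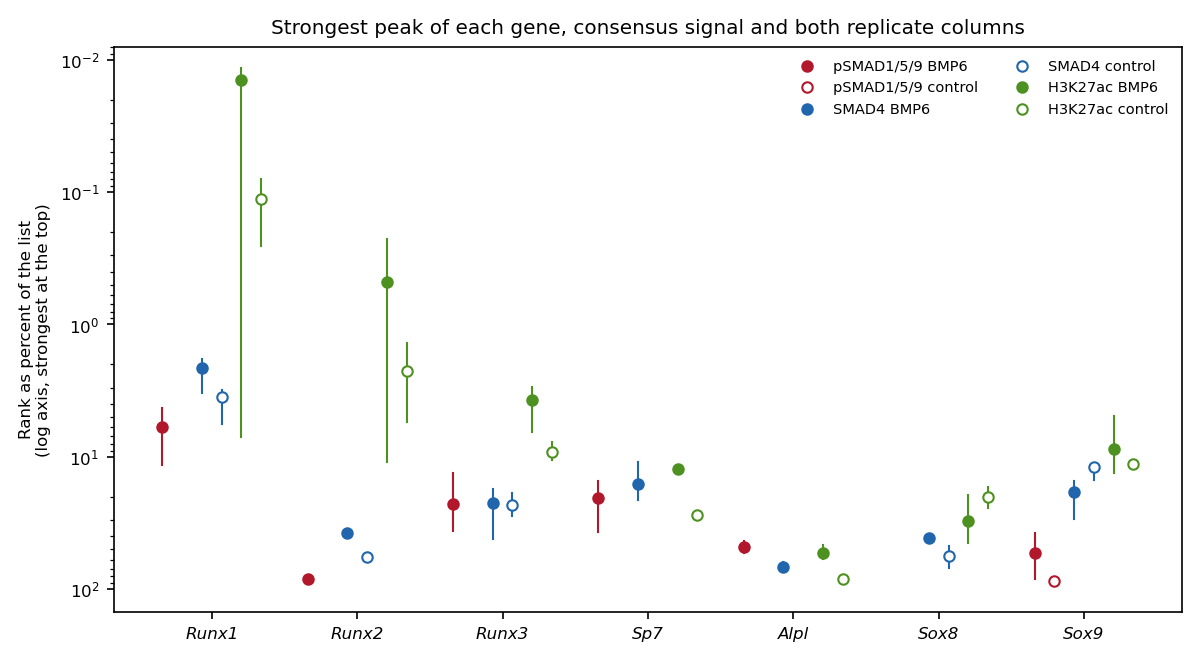
Rank of the strongest peak of each gene as a percentage of its list (vertical log axis, strongest at the top) for the 7 genes with a peak. Filled symbols are BMP6 and open symbols control, and the vertical lines join the ranks of the same peak by both replicate columns. Runx1 was highest in every list in which it had a peak, and the line of its H3K27ac peak after BMP6 is the longest.

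Of the 21 pSMAD1/5/9 peaks after BMP6, 17 overlapped a SMAD4 peak of the same condition (81.0%, Wilson 95% interval 60.0 to 92.3), against 73.2% of the whole list. The exceptions were the peak of Alpl, 1 of Runx3 and 2 of Runx1. The summits of such pairs were 25 bp to 448 bp apart, with a median of 124 bp. With SMAD4 peaks of control cells 12 of 21 overlapped (57.1%, 36.5 to 75.5), and the whole list stood at 57.2%. All 21 overlapped an H3K27ac peak in both conditions, where the list stood at 98.2% and 97.5%. These shares lay close to those of the list, whose values fell inside the intervals. The intervals cover counting error over peaks, and 13 of the 21 peaks belong to 1 gene.

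Peaks present in both conditions were compared by rank, a comparison added after the peaks had been seen. Each BMP6 peak was matched with the control peak that it overlapped most and the reverse, and matched peaks were ranked anew. A rank counted as better after BMP6 where both replicate columns of BMP6 lay ahead of both of control, and worse where both lay behind. For SMAD4 the genes held 13 of the 5640 matched peaks, of which 2 were better and 5 worse, against 23.6% and 25.8% of all matched peaks. Both of the better ones were at Runx1. At 205 kb the SMAD4 ranks were 232 and 421 after BMP6 and 769 and 646 in control cells, and at 202 kb they were 1384 and 3815 against 4889 and 5476. The worse ones included the canonical TSS of Runx1, with 4328 and 2629 after BMP6 against 1067 and 1777. Another was the TSS of Sox9, with 1794 and 3042 against 954 and 1238. At 202 kb the control peak was 156 bp wide, against 858 bp after BMP6, and did not pass an IDR of 0.01. The peaks at the Runx1 TSS measured 412 bp after BMP6 and 918 bp in control cells. Neither match reached an overlap of 50% of both peaks, a setting that left 1 better and 4 worse. The pSMAD1/5/9 ranks of Sox9 overlapped between conditions (589 and 773 against 734 and 711 of 796 matched peaks). For all matched pSMAD1/5/9 peaks, 31.2% were better and 32.8% worse. A rank is relative to the other peaks of its list, so that a worse rank need not mean less signal.

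For H3K27ac the genes held 67 matched peaks, of which 20 were better after BMP6 (29.9%) and 5 worse (7.46%), against 16.1% and 17.0% of all 53629. Of the 20, 8 lay at Runx1, 4 at Runx2, 5 at Sp7 and 1 each at Runx3, Alpl and Sox8. Several of those at Runx1 matched a wide BMP6 peak with a much narrower control peak. Widths were 10220 bp against 2700 bp at 85896 bp, and 7280 bp against 2400 bp at 97066 bp. When matched peaks had to overlap by at least 50% of both, 14 were better and 5 worse, and most of the matches lost were at Runx1. Peaks of 1 gene share their neighbourhood and are not independent. In the region of Sp7, 5 of 6 matched peaks were better. Aaas had the nearest TSS to those 16604 bp and 11734 bp downstream, at 100 bp and 4770 bp after BMP6. These peaks cannot be assigned to Sp7 alone. The better peak 10327 bp upstream covers the pSMAD1/5/9 and SMAD4 peaks there. Its H3K27ac ranks were 9894 and 9085 after BMP6 and 18230 and 17334 in control cells, of 53629. Its width was 3080 bp after BMP6 and 2200 bp in control cells. At Alpl the only matched peak, which covers the pSMAD1/5/9 peak, had ranks of 34436 and 41430 against 48682 and 46254. At Runx3 the matched peak 38981 bp downstream, over a pSMAD1/5/9 and SMAD4 site, had ranks of 5003 and 2301 against 6920 and 5079. Of the 3 worse peaks of Runx1, 1 lay at its proximal promoter, with ranks of 907 and 1280 after BMP6 against 502 and 633.

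H3K27ac peaks covered 78.7% of the Runx1 region after BMP6 and 67.3% in control cells. After BMP6, 36 genes, itself included, were covered at least as far, and the median over all genes was 7.07% (5.68% in control cells). Runx2 followed with 68.3% and 57.6%. The widest peak of Runx1 measured 37.1 kb after BMP6, place 10 by width, and held the strongest pSMAD1/5/9 site at 205 kb. Its signal ranked 11 of 78050, but with ranks of 5484 and 9 by the replicate columns it rested on 1 of them. Sp7 was covered to 27.2% and 19.7%, Sox8 to 19.2% and 10.4%, Runx3 to 15.0% and 13.9%, Sox9 to 8.91% and 11.6%, and Alpl to 2.66% and 0.739%. Coverage was thus larger after BMP6 at 6 genes and smaller at Sox9, as the plot of covered length shows. The share of all genes with larger coverage after BMP6 was not counted, and the median over all genes was larger too. Peak widths at these genes came in steps of different size in the BMP6 and control lists, so covered lengths are not strictly comparable. The median H3K27ac peak of the whole list was also wider after BMP6, 1470 bp against 1400 bp. The canonical TSS lay under H3K27ac in both conditions at Runx1, Runx2 and Sox9, and after BMP6 alone at Sox8, where the peak ranked 65683 of 78050.

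**Figure D5:**
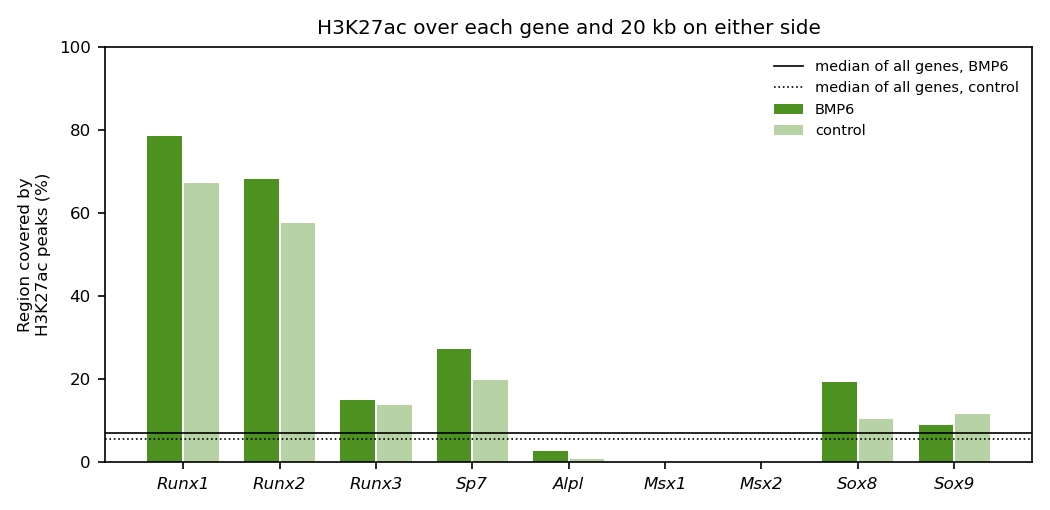
Share of each gene region covered by H3K27ac peaks in percent (vertical axis) for the 9 genes, after BMP6 (dark bars) and in control cells (light bars), from 1 consensus list per condition. The lines mark the median over all protein-coding genes, 7.07% after BMP6 and 5.68% in control cells. Runx1 and Runx2 stand far above the lines, Alpl below them, and Msx1 and Msx2 at 0.

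Motifs were counted in the 200 bp around each summit, on both strands. TGACTCA was found at 5 of the 21 pSMAD1/5/9 peaks after BMP6 (23.8%), 4 of them at Runx1, against 15.5% of the list. TGTGGT was found at 5 (23.8% against 21.9%), GGAGCC at 4 (25.2% of the list), CAGCTG at 4 (31.1% of the list) and GGCGCC at 1 (4.76% against 7.75%). GTCTAGAC was found at none (0.518% of the list), and neither was GGCGCC followed after 5 bases by GTCT (0.109%). At SMAD4 peaks of control cells CAGCTG was found at 12 of 21 (57.1% against 32.7% of the list). Most of these peaks were at Runx3 and Runx1, and they included neighbours at 37224 bp, 38894 bp, 39249 bp and 40596 bp of Runx3. At SMAD4 peaks after BMP6 it was found at 10 of 30 (33.3% against 29.1%). The peak 2262 bp downstream of the Runx1 TSS held 19 TGTGGT matches in its 1209 bp, more than any other of the 7339 peaks, within a stretch of TG repeats. No test was made, because peaks of 1 gene are not replicates.

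The gene most like Runx1 by the position of its strongest peak in the 6 lists was Jdp2, which encodes a partner of AP-1 factors. The mean difference over the lists was 0.72 percentage points of rank. Next came Comtd1 and Vdac2, neighbours that share the same strongest peaks, at 0.74 points. They had 2, 1 and 1 pSMAD1/5/9 peaks after BMP6, compared with 13 at Runx1.

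Other genes of both programmes were taken from lists of 30 osteoblast genes, of which 29 were found in the annotation, and 30 chondrocyte genes. Of the osteoblast genes, 8 had a pSMAD1/5/9 peak after BMP6 (27.6%) and 2 in control cells (Ibsp and Mepe, neighbours that share the same peak in each SMAD list), and of the chondrocyte genes 4 (13.3%) and 1, where all genes stood at 29.1% and 5.97%. The osteoblast genes were Cbfb (the DNA-binding partner of RUNX proteins), Col1a1, Ibsp, Mepe, Sparc, Lrp5, Wnt10b and Smpd3, and the chondrocyte genes were Col9a3, Col11a2, Matn3 and Scx. SMAD4 peaks after BMP6 were listed at 8 osteoblast genes (27.6%) and 9 chondrocyte genes (30%), against 39.3% of all genes. The median number of pSMAD1/5/9 peaks was 0 for both lists and for all genes. Scx, a tendon and cartilage transcription factor, was the only one of them in the strongest 5% of the list. Its peak, with the summit 953 bp ahead of the TSS, ranked 16 of 7339 (15 and 32), and it overlapped a pSMAD1/5/9 peak of control cells.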

How the data were processed

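MuSCs with BMP6 or vehicle were profiled by CUT&Tag, and 12 of the 14 samples entered the 6 lists used. Libraries made with no primary antibody, 2 in number, are not analysed here. For each antibody the authors subsampled reads to 1 depth before alignment to GRCm39 with Bowtie2 2.5.4, filtered them with SAMtools 1.21, called peaks per replicate with JAMM and combined replicates with IDR at 0.05. The deposited signal is a score without a fixed range, and the consensus value equals the sum of both replicate values. The deposited IDR is given as −log10 of the value. Groups follow the labels.

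Positions were made 1-based. Genes were canonical GENCODE release 39 transcripts of 21757 protein-coding genes. Peaks overlapped with at least 1 bp. Python 3.11.15, numpy 2.4.6, pandas 2.3.3, scipy 1.17.1, pysam 0.24.0, samtools 1.23.1 and matplotlib 3.10.9 were used. Overlap and rank procedures were tested on simulated data.

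The named genes are the 9 regulators, programme genes with a pSMAD1/5/9 peak in the strongest 5%, and the 3 genes most like Runx1. Printed windows are the windows of the strongest peaks that held a motif match. Those without one, at Runx2, Alpl and the pSMAD1/5/9 peak of Sox9, are not printed, and Sox9 is shown at its SMAD4 peak. Genes, lists and motifs were chosen with earlier results of these data known. Alternatives covered the IDR threshold, the region, the overlap required, the transcripts, the nearest TSS, each replicate column and the motif window. The matching of peaks between conditions, and a stricter overlap for it, came later, once the data had been seen.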

Additional observations from a re-analysis of the deposited data

How the results depend on the processing

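Of the counts of genes with a peak, those that moved most did so when the region was narrowed to 1.5 kb upstream and 0.5 kb downstream of the TSS. Then 2 genes had a pSMAD1/5/9 peak after BMP6, 3 and 2 a SMAD4 peak after BMP6 and in control cells, and 4 and 3 an H3K27ac peak. An IDR of at most 0.01 left 0 genes with a pSMAD1/5/9 peak in control cells, where Sox9 was the only one, and 3 with a SMAD4 peak in control cells. Both settings keep fewer peaks by construction. Shares of all genes are not given for the settings of this section, except for 20 kb on either side of the TSS. There, 22.4% of all genes had a pSMAD1/5/9 peak after BMP6. The counts thus show how a result moved and not how it stood against all genes. The other counts of genes stayed within 1.5 times. For pSMAD1/5/9 after BMP6 they were 4 at an IDR of 0.01, 4 within 20 kb of the TSS, 5 in the gene body alone, 7 with 50 kb on either side (Sox8 joined), 5 by the nearest TSS, and 6 with peaks held to at least 50% in the region or with all basic transcripts. Among single genes, all basic transcripts changed Runx2 alone by more than 1.5 times, from 1 to 4 pSMAD1/5/9 peaks after BMP6, from 5 to 10 and from 2 to 6 SMAD4 peaks after BMP6 and in control cells, and from 35 to 53 H3K27ac peaks after BMP6, because a longer transcript adds to the region. When 50% of both peaks had to overlap, 11 of the 21 pSMAD1/5/9 peaks overlapped SMAD4 in place of 17, and at an IDR of 0.01 in both lists 14 of 15 did. Counting motifs in whole peaks in place of 200 bp raised TGACTCA from 5 to 9 peaks and CAGCTG from 4 to 11. With an overlap of at least 50% for matched peaks, 14 H3K27ac peaks were better and 5 worse after BMP6, and for SMAD4 1 and 4. The rank of the strongest peak moved by more than the spread between replicate columns in 11 of 66 values when 1 replicate column was left out. That spread comes from the same 2 columns that sum to the consensus signal, so this count cannot show how stable a rank is. For pSMAD1/5/9 after BMP6 at Runx2, 6128 against 5834 and 5750 counted as moved. For H3K27ac after BMP6 at Runx1, 11 against 915 and 9 did not. No paired analysis was possible because the replicate columns carry no number. The number of replicates limits the precision of every rank.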
